A study of Rattus norvegicus with 15 samples.

Results

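The NR4A nuclear receptor genes Nr4a1, Nr4a2 and Nr4a3, the dual-specificity phosphatase genes Dusp1, Dusp4, Dusp5 and Dusp6, and the early response genes Btg2, Ier2 and Ier3 were followed across rat primary chondrocytes. The 10 genes were chosen by name, and 9 of them have a row in a count table of 33717 loci. All 9 had enough counts to be tested, among 14147 tested loci. No row is named Ier2. A row named AC120246.2 (biotype pseudogene, chromosome 19, 25774143 to 25775659, minus strand) carries in its description the protein entry of rat IER2. It is given apart and is not counted with the 9 genes.

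Early response genes are switched on within minutes of a stimulus without the need for new protein, and their transcripts are short-lived. Growth factors, cyclic AMP, calcium and mechanical signals all drive them, largely through CREB, SRF and the MAP kinases. NR4A proteins are nuclear receptors that act without a known natural ligand, so their activity follows their amount. DUSP proteins remove phosphate from MAP kinases and so form a feedback loop on the signal that induces them.

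The cells came from the temporomandibular joint (the jaw joint) and are labelled primary chondrocytes. RNA-seq gave 15 libraries in 5 groups of 3: a control, whose label says nothing of siRNA, cells under mechanical stress, cells with a control siRNA, cells with an siRNA against the RNA helicase gene Ddx5, and cells with the Ddx5 siRNA under mechanical stress. No library combined the control siRNA with stress. Groups are called without siRNA where the label names none. The labels name neither strain nor age, nor whether libraries of a group came from separate animals or cultures, so the error behind each p-value is the difference among these libraries and may be technical in origin.

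Promoter sequences are shown for Nr4a1, Dusp1 and Btg2, the 3 genes that passed the test below, because CREB binding motifs are a known feature of such promoters. RefSeq promoters on GRCr8 were matched for 7 of the 10 genes, and the 250 bases before each start were searched on both strands. The full cyclic AMP response element TGACGTCA stood in the windows of Dusp1, beginning 124 bases before the start, of Btg2, at 201 bases, and of Ier2, at 66 bases. It was found in 1.59% of all 33469 promoter windows. Its 5-letter core TGACG was found in 18.2% of windows and in those of all matched genes but Dusp6. Nr4a1 held no full element but 4 copies of TGCGTCA, beginning 248, 228, 84 and 55 bases before the start, a motif picked after its sequence was read and present in 1.66% of windows. Each copy overlaps a TGACG match on the other strand. Neither TATAAA (12.9% of windows) nor AAAGGTCA (1.24%), the element that NR4A monomers bind, was present in the 7 windows. A match describes letters and is not evidence of binding. The sequences run 5′ to 3′ on the gene's strand. In Nr4a1 (chr7:134259888-134260109, plus strand) capitals mark TGCGTCA, and in Dusp1 (chr10:17184661-17184756, plus strand) and Btg2 (chr13:48087864-48087911, minus strand) they mark the full element or its core.
Nr4a1: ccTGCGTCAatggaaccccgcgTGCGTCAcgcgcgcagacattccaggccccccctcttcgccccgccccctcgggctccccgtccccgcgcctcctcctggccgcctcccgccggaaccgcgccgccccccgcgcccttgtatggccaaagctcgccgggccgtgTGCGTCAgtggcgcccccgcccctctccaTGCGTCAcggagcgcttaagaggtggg
Dusp1: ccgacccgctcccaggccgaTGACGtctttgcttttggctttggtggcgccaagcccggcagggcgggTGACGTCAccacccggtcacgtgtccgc
Btg2: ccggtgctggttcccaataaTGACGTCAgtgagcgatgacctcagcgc

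Library totals ran from 14309005 to 16219775 counts, at which 3 counts equal 0.21 CPM (counts scaled by library size, with TMM factors) in the library with the lowest total. Ddx5 itself stood at 360 to 398 CPM with the control siRNA and at 207 to 252 CPM with its siRNA, without overlap. The control libraries lay above both, at 485 to 545 CPM. Under stress Ddx5 had 360 to 418 CPM, and with its siRNA and stress 164 to 241 CPM. Of 12 matched chondrocyte markers, which summed to 1440 to 2740 CPM, Col2a1 had a median of 2.28 CPM and Matn1 of 0, while Acan had 219 and Col11a1 1950. The fibroblast collagen gene Col1a1 had a median of 43500 CPM. Type II collagen, which defines the labelled cell type, was therefore low in these libraries. Endothelial markers summed to under 1.6 CPM in every library, and the leukocyte markers to between 18.6 and 42.6 CPM with Cd163 and Tyrobp at 0 in all. In 2 libraries, replicate 1 of the Ddx5 siRNA group and replicate 1 of the group with Ddx5 siRNA and stress, the correlation with their own group was 0.956 to 0.967. It was 0.971 to 0.984 in the 11 other pairs within groups. Results that rest on these libraries are given with and without them.

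Per length, the 9 genes spanned a wide range in the control. Ier3, a small protein of the stress and survival response, was highest at 328 ± 14 CPM per kilobase, followed by Dusp1 at 183 ± 21.5 (SD, n = 3). Dusp6 had 54.9 ± 9.38, Btg2 35.6 ± 3.1, Nr4a1 20.6 ± 0.871 and Dusp5 15.3 ± 6.07 CPM per kilobase. Nr4a2 (3.07 ± 0.249), Dusp4 (1.1 ± 0.368) and Nr4a3 (0.415 ± 0.161) were low, and Nr4a3 rests on 9 to 149 counts per library. The control siRNA group had the lowest mean of the 5 groups for 8 of the 9 genes, all but Nr4a2. It lay apart from the next group, with no overlap, for Nr4a1, Dusp1, Dusp4, Dusp5, Btg2 and Ier3, and overlapped it for Nr4a3 and Dusp6. For Ier3 the control siRNA libraries (294 to 330 CPM) did overlap the Ddx5 siRNA group, whose lowest library had 298 CPM. Above the lowest group, neighbours in the order of means overlapped, with 2 exceptions. Nr4a3 was higher with the Ddx5 siRNA and stress (6.12 ± 3.12 CPM) than in the next group, stress (2.85 ± 0.767), and Ier3 was higher under stress (606 ± 57) than in the next group, Ddx5 siRNA (439 ± 122; SD, n = 3).

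**Figure D1:**
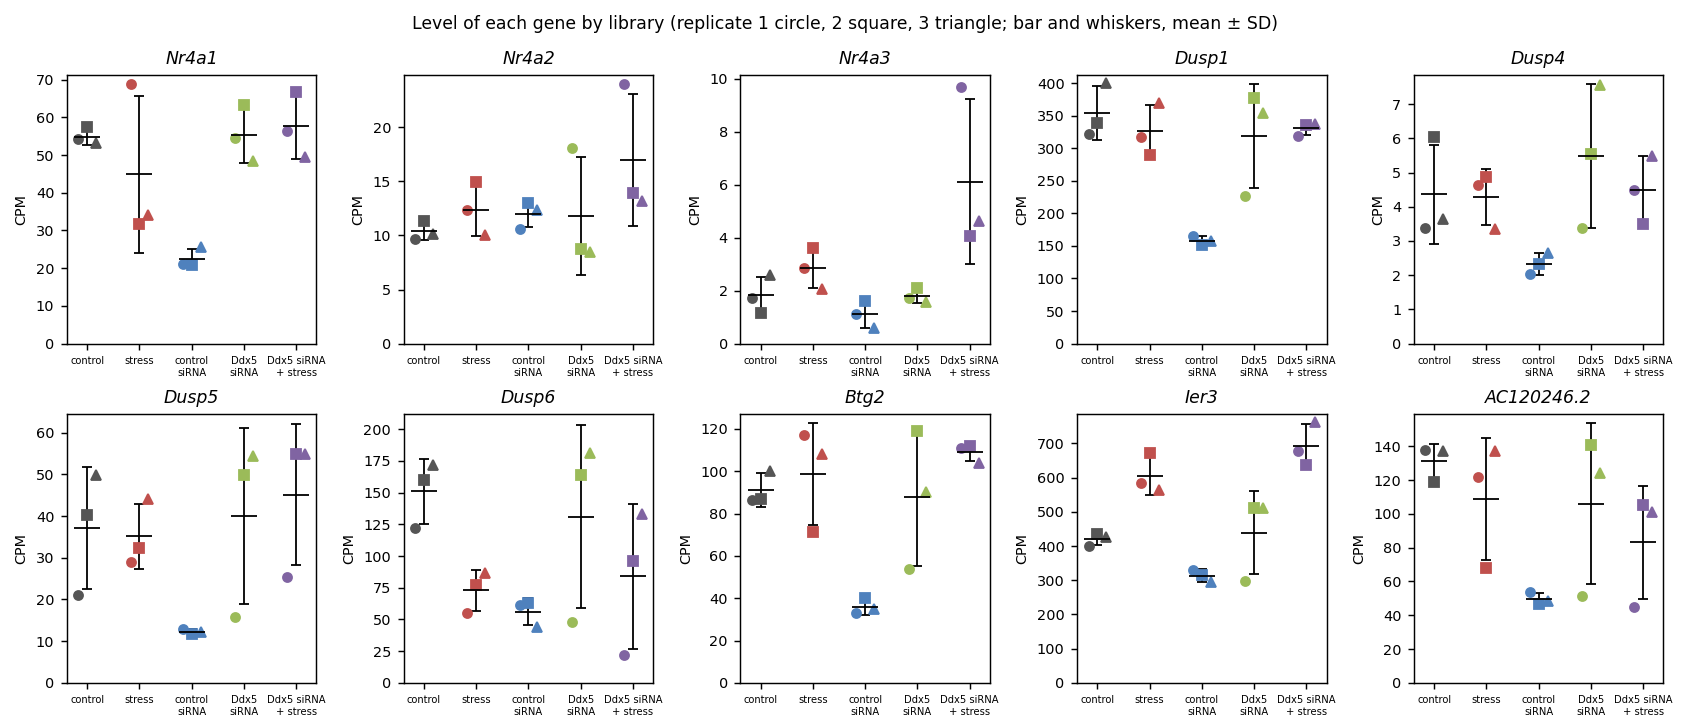
CPM (vertical axes, linear from 0) of the 9 genes and of AC120246.2 in each of the 15 libraries, with group means and SD. The control siRNA libraries lie below every library of the other groups for Nr4a1 (20.8 to 25.6 CPM) and Btg2 (32.9 to 40 CPM), while Nr4a3 is highest with the Ddx5 siRNA and stress (4.05 to 9.71 CPM).

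What the control siRNA itself went with was asked by comparing it with the control. Nr4a1, Dusp1 and Btg2 fell, by 1.17 to 1.34 on the log2 scale. They are 3 of 9 genes, against 1.77% of all tested genes that fell. In 7 of the 9 the control siRNA libraries lay below all control libraries, as in 15.4% of tested genes. The median log2 fold change of the 9 genes was −1.17, against 0 over all genes.

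Nr4a1, which encodes the nuclear receptor Nur77 (chromosome 7, 142905758 to 142920216, plus strand, coordinates of the deposited table, whose build is not given in the sources used here), stood at 54.2, 57.5 and 53.1 CPM in the control. The control siRNA libraries had 21.1, 20.8 and 25.6 CPM, all below the control. The log2 fold change was −1.29 (SE 0.24, edgeR adjusted p = 0.011). The call was lost without control siRNA replicate 1 (edgeR adjusted p = 0.061) or replicate 2 (0.061). Nr4a2, or Nurr1 (chromosome 3, 43111240 to 43119159, minus strand), had 9.68, 11.3 and 10.1 CPM in the control and 10.6, 13 and 12.4 with the control siRNA. These groups overlapped (0.21, SE 0.29, edgeR adjusted p = 0.72). Nr4a3, or NOR-1 (chromosome 5, 63781801 to 63821637, plus strand), had 1.72, 1.17 and 2.58 CPM against 1.11, 1.6 and 0.596, which also overlapped (−0.73, SE 0.44, edgeR adjusted p = 0.36).

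Dusp1, whose product dephosphorylates p38, JNK and ERK in the nucleus (chromosome 10, 16970626 to 16973418, plus strand), had 322, 339 and 401 CPM in the control. With the control siRNA it had 165, 151 and 157 CPM, below every control library. Its log2 fold change was −1.17 (SE 0.16, edgeR adjusted p = 0.001), and no left-out library ended the call. The ERK phosphatase genes Dusp5 and Dusp6 were lower without passing the test. Dusp5 (chromosome 1, 274245184 to 274258595, plus strand), the nuclear one, had 21.1, 40.2 and 49.9 CPM in the control and 12.8, 11.7 and 12.3 with the control siRNA (−1.59, SE 0.47, edgeR adjusted p = 0.085). Dusp6 (chromosome 7, 41475163 to 41479392, plus strand), the cytoplasmic one, had 122, 160 and 172 CPM against 61.7, 62.9 and 43.9 (−1.43, SE 0.59, edgeR adjusted p = 0.2). Neither gene's groups overlapped, and both genes passed when only the 2 groups were fitted (edgeR adjusted p = 0.022 and 0.0012). Dusp4 (chromosome 16, 61078175 to 61091169, minus strand), which acts on MAP kinases in the nucleus, had 3.39, 6.04 and 3.65 CPM against 2.02, 2.32 and 2.65 (−0.9, SE 0.32, edgeR adjusted p = 0.13), again with no overlap.

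Btg2, an antiproliferative gene whose product binds the CCR4-NOT deadenylase (chromosome 13, 50913180 to 50916982, minus strand), had 86.4, 86.8 and 100 CPM in the control. The control siRNA libraries had 32.9, 40 and 35 CPM. The log2 fold change was −1.34 (SE 0.24, edgeR adjusted p = 0.0083), and no left-out library ended the call. Ier3 (chromosome 20, 3438798 to 3440769, minus strand) had 400, 435 and 425 CPM against 330, 316 and 294, a smaller difference without overlap (−0.42, SE 0.16, edgeR adjusted p = 0.16; 0.011 with only the 2 groups fitted). The locus AC120246.2 had 138, 119 and 137 CPM against 53.6, 46.4 and 48.7 (−1.41, SE 0.4, edgeR adjusted p = 0.076). It passed with DESeq2 (adjusted p = 0.012). The sum of the fibroblast markers was 37500 to 43300 CPM in the control and 71300 to 86200 CPM with the control siRNA. Most of it was Col1a1, with means of 34300 and 64500 CPM. Of 7 tested 1, Col1a1, rose (0.91, SE 0.2, edgeR adjusted p = 0.022), and 5 of the 7 were positive. Chondrocyte markers summed to 1730 to 2220 CPM in the control and 2320 to 2740 CPM with the control siRNA, also without overlap, while 2 of the 8 tested were positive and their median log2 fold change was −0.3. Leukocyte markers summed to 25.1 to 34 CPM and 19.3 to 21.7 CPM. Cd14 had the highest median of that list, 24 CPM over the 15 libraries, while Ptprc had at most 1 count. Of 3 tested muscle markers Myh1 fell (−0.86, SE 0.16, edgeR adjusted p = 0.0083), while the other 2 were positive without passing and the median was 0.4. Of 3 tested Schwann cell and neuron markers 1 rose, Tubb3 (0.84, SE 0.17, edgeR adjusted p = 0.014). The Col1a1 call was lost without control replicates 1 or 3 or control siRNA replicates 2 or 3 (0.068 to 0.099), and that of Tubb3 without control replicates 1 or 2 or control siRNA replicate 3 (0.054 to 0.076). The part of these markers in the result was not tested, and in bulk RNA fewer cells of a type and less RNA per cell cannot be told apart.

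The effect of the Ddx5 siRNA was then examined against the control siRNA, a comparison that shares the control siRNA libraries with the one above. Nr4a1, Dusp1 and Btg2 rose, by 1.02 to 1.3 on the log2 scale. These 3 of 9 stand beside 0.233% of all tested genes that rose. In 5 of the 9, Nr4a1, Dusp1, Dusp4, Dusp5 and Btg2, the groups did not overlap and the Ddx5 siRNA was higher, as in 10.7% of tested genes. The log2 fold change was positive in 8 of 9 genes, with a median of 1.22 against 0.01 over all genes.

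Nr4a1 had 54.5, 63.2 and 48.4 CPM with the Ddx5 siRNA, all above the control siRNA libraries (log2 fold change 1.3, SE 0.24, edgeR adjusted p = 0.043). Dusp1 had 227, 377 and 354 CPM, with replicate 1 the lowest but still above the control siRNA (1.02, SE 0.15, edgeR adjusted p = 0.018). Btg2 had 54, 119 and 90.1 CPM in the same pattern (1.29, SE 0.24, edgeR adjusted p = 0.043). Without control siRNA replicates 1, 2 or 3 or Ddx5 siRNA replicates 2 or 3, the adjusted p was 0.12 to 0.21 for Nr4a1, 0.068 to 0.13 for Dusp1 and 0.15 to 0.22 for Btg2, and 0 of 9 genes passed. All 3 kept their calls without Ddx5 siRNA replicate 1. With no low-count filter Nr4a1 (edgeR adjusted p = 0.055) and Btg2 (0.059) were lost, and with only the groups compared Dusp1 (0.073) and Btg2 (0.12). With the replicate block and only these groups all 3 were lost (0.11, 0.17 and 0.12).

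The other 6 genes did not pass, and in several of them replicate 1 of the Ddx5 siRNA group stood near the control siRNA level. Dusp5 had 15.7 CPM in replicate 1 and 49.9 and 54.4 in the others (log2 fold change 1.7, SE 0.47, edgeR adjusted p = 0.14). Dusp6 had 48.3, 164 and 181 CPM (1.22, SE 0.59, edgeR adjusted p = 0.35) and Ier3 298, 510 and 510 CPM (0.49, SE 0.16, edgeR adjusted p = 0.17). In both, replicate 1 lay within the control siRNA range. Dusp4 had 3.37, 5.53 and 7.56 CPM (1.23, SE 0.32, edgeR adjusted p = 0.11). Nr4a3 had 1.72, 2.11 and 1.56 CPM (0.71, SE 0.44, edgeR adjusted p = 0.46). Nr4a2 went the other way by library, with 18.1 CPM in replicate 1 and 8.75 and 8.44 in the others (−0.03, SE 0.29, edgeR adjusted p = 0.97). AC120246.2 had 51.4, 141 and 124 CPM (1.09, SE 0.39, edgeR adjusted p = 0.21).

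Without Ddx5 siRNA replicate 1, 6 of 9 genes rose, against 2.44% of all genes tested in that fit. Dusp4 (log2 fold change 1.49, edgeR adjusted p = 0.02), Dusp5 (2.09, edgeR adjusted p = 0.016) and Ier3 (0.7, edgeR adjusted p = 0.0042) then joined Nr4a1, Dusp1 and Btg2. With replicate 1 of both Ddx5 siRNA groups left out, 7 of 9 rose, Dusp6 included (1.62, edgeR adjusted p = 0.0012). In that fit 909 of all 14346 tested genes rose. Nr4a2 and Nr4a3 passed in neither fit. Fibroblast markers summed to 51000 to 80600 CPM in the Ddx5 siRNA libraries, with Col1a1 at 68100 CPM in replicate 1 and at 46700 and 45100 in the others. Against the control siRNA 2 of the 7 tested were positive, with a median log2 fold change of −0.32. Of 3 tested muscle markers 1 rose against the control siRNA, Myh1 (1.14, SE 0.16, edgeR adjusted p = 0.018). It did not pass without control siRNA replicates 1 or 3 or Ddx5 siRNA replicates 2 or 3 (0.068 to 0.11). The part of these markers in the result was not tested.

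**Figure D2:**
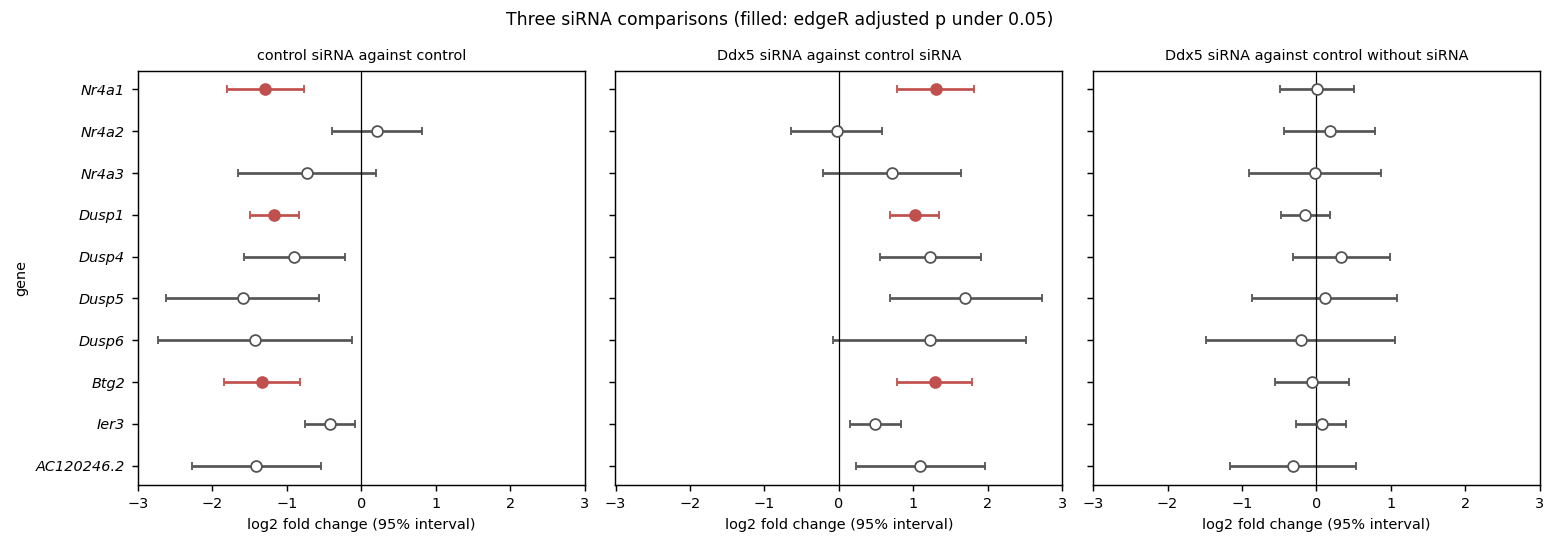
Log2 fold changes with 95% intervals (horizontal axes) of the 9 genes and AC120246.2 in the siRNA comparisons. Filled red points passed at an edgeR adjusted p under 0.05 and open points did not. Nr4a1, Dusp1 and Btg2 are filled at −1.29, −1.17 and −1.34 against control and at 1.3, 1.02 and 1.29 against the control siRNA, and all points of the comparison with the control without siRNA are open.

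**Figure D3:**
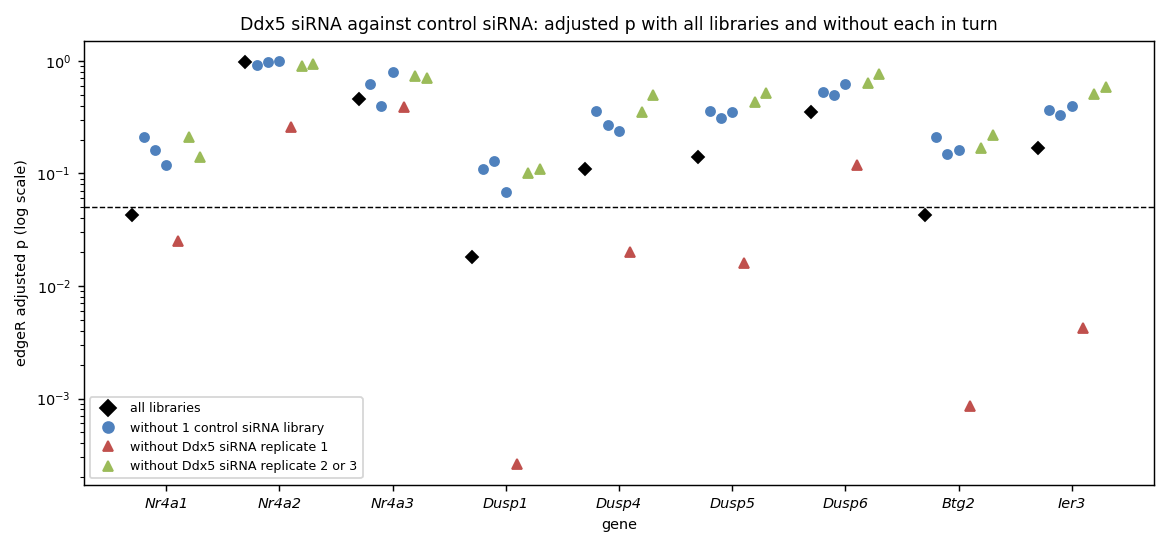
Adjusted p (vertical axis, log scale) of each gene for Ddx5 siRNA against control siRNA with all libraries (diamonds) and with 1 library left out (other symbols), with a dashed line at 0.05. Only the fit without Ddx5 siRNA replicate 1 has points under the line once a library is left out, at 6 of 9 genes.

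Against the control without siRNA, the Ddx5 siRNA libraries gave 0 of 9 calls with edgeR, 0 at an unadjusted p under 0.05 and 0 with DESeq2. Of all genes 0.0212% passed with edgeR, and DESeq2 called 132 of the 14271 genes tested with it. No gene of the 9 was free of overlap between these groups, against 14.4% of all genes. The log2 fold changes ran from −0.21 for Dusp6 (95% interval −1.48 to 1.06) to 0.33 for Dusp4 (−0.32 to 0.99). Nr4a1 differed by 0.01 (95% interval −0.49 to 0.51), Dusp1 by −0.15 (−0.47 to 0.18) and Btg2 by −0.06 (−0.55 to 0.44). Leaving out Ddx5 siRNA replicate 1 also gave 0 of 9 calls, where 5 of all 14430 tested genes passed. Which of the 2 controls matches the untreated state cannot be told apart here, since the labels do not say what the control cells received.

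Mechanical stress without siRNA gave 0 of 9 calls with edgeR, against 1.41% of all genes; 1 of the 9, Ier3, had an unadjusted p under 0.05, and DESeq2 called it (adjusted p = 0.041). The stress and control groups did not overlap for 2 of 9 genes, against 21.7% of all genes. Ier3 was higher, with 584, 671 and 563 CPM under stress (log2 fold change 0.53, SE 0.16, edgeR adjusted p = 0.12). Dusp6 was lower, with 55.1, 76.8 and 86.8 CPM (−1.05, SE 0.58, edgeR adjusted p = 0.43). Replicate numbers were taken as pairing, a choice made from correlations in these same libraries. The reported fit holds no term for it. With that pairing and only the 6 libraries fitted, both passed (edgeR adjusted p = 0.00011 for Ier3 and 4.1e-07 for Dusp6). In that fit 1683 of all 13436 tested genes passed. Ier3 and Dusp6 also passed without the pairing (0.042 and 0.033), where 202 of 13436 genes passed. With the replicate number as a block in the fit of all libraries 0 of 9 passed. That block also spans groups whose numbers were not taken as pairing. Of the marker lists, 1 of 8 tested chondrocyte markers fell under stress, Sox9, the transcription factor of chondrocyte identity, with 20.9, 21.8 and 18.7 CPM in the control and 12.7, 11 and 8.95 under stress (−0.92, SE 0.21, edgeR adjusted p = 0.049). That call was lost without any of the 6 libraries (0.084 to 0.15). Of the 8 markers 3 were positive, with a median log2 fold change of −0.18. Of 3 tested muscle markers 1 fell, Myh1 (−0.81, SE 0.16, edgeR adjusted p = 0.017), which was lost without control replicate 1 or stress replicates 2 or 3 (0.065 to 0.079). The Myh1 call was also lost with only the groups compared (0.053), and 1 of the 3 muscle markers was positive. Chondrocyte markers summed to 1440 to 1970 CPM under stress, overlapping the control. The part of these markers in the results was not tested.

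The NR4A genes did not pass under stress. Nr4a1 had 68.9 CPM in stress replicate 1, above the control, and 31.6 and 34.1 in the others, below it (log2 fold change −0.29, SE 0.23, edgeR adjusted p = 0.6). Without that replicate it was −0.74 (edgeR adjusted p = 0.038). Nr4a2 had 12.4, 14.9 and 10 CPM (0.26, SE 0.29, edgeR adjusted p = 0.71) and Nr4a3 2.86, 3.61 and 2.08 CPM (0.64, SE 0.41, edgeR adjusted p = 0.49). Both overlapped the control. Dusp1 had 318, 290 and 370 CPM (−0.12, SE 0.15, edgeR adjusted p = 0.77), Dusp4 4.63, 4.86 and 3.34 CPM (−0.03, SE 0.31) and Dusp5 28.9, 32.3 and 44 CPM (−0.08, SE 0.45). Btg2 had 117, 71.4 and 108 CPM (0.11, SE 0.23), with replicate 2 below the control range and the others above it. AC120246.2 had 122, 68.2 and 137 CPM and overlapped the control as well.

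In cells with the Ddx5 siRNA, stress gave 0 of 9 calls with edgeR, against 1.19% of all genes. At an unadjusted p under 0.05 there were 2, Nr4a3 and Ier3, and DESeq2 called both (adjusted p = 0.0042 and 0.0081). These are also the 2 of 9 genes that were higher without overlap, against 8.72% of all genes. Nr4a3 had 9.71, 4.05 and 4.62 CPM under stress, against 1.72, 2.11 and 1.56 without it (log2 fold change 1.76, SE 0.41, edgeR adjusted p = 0.052). It was thus 3.4-fold higher, with every stressed library above every unstressed one. Ier3 had 679, 638 and 763 CPM under stress, against 298, 510 and 510 (0.66, SE 0.16, edgeR adjusted p = 0.062). Replicate numbers were taken as pairing here too, again from correlations in these same libraries. With only these 6 libraries fitted and no pairing neither passed (edgeR adjusted p = 0.25 for Nr4a3 and 0.44 for Ier3). With the replicate number as a block over all libraries both genes passed, Nr4a3 at an edgeR adjusted p of 0.047 and Ier3 at 0.037. In that fit 1.55% of all genes rose. That block also spans groups whose numbers were not taken as pairing. With the pairing and only the 6 libraries fitted, 3 of 9 passed: Nr4a3 (0.0059), Nr4a2 (0.028) and Dusp6 (0.023). In that fit 985 of all 13500 tested genes passed. Without Ddx5 siRNA with stress replicate 2, Nr4a3 passed alone (0.036), and with replicate 1 of both groups left out 0 of 9 passed. In those fits 187 of all 14436 and 148 of all 14346 tested genes passed, in that order.

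The remaining genes overlapped between these groups. Nr4a2 had 24, 13.9 and 13.2 CPM under stress (log2 fold change 0.54, SE 0.28, edgeR adjusted p = 0.53), each above the unstressed library of the same number. Dusp6 had 21.8, 96.4 and 133 CPM (−0.64, SE 0.58, edgeR adjusted p = 0.8), each below its own. Nr4a1 had 56.4, 66.8 and 49.6 CPM (0.06, SE 0.23) and Btg2 111, 112 and 104 CPM (0.32, SE 0.23). Dusp1 had 319, 336 and 338 CPM (0.05, SE 0.15), close together and within the range of the unstressed libraries. Dusp4 had 4.5, 3.5 and 5.5 CPM (−0.29, SE 0.31), Dusp5 25.5, 54.9 and 54.8 CPM (0.17, SE 0.44) and AC120246.2 44.8, 105 and 101 CPM. Sox9 fell here as well, the 1 of 8 chondrocyte markers to do so, with 14.7, 27.8 and 22.4 CPM without stress and 9.84, 10.5 and 13.4 with it (−0.94, SE 0.21, edgeR adjusted p = 0.045). Its call was lost without Ddx5 siRNA replicates 2 or 3 or Ddx5 siRNA with stress replicates 1 or 2 (0.13 to 0.25), and with only the groups compared (0.33). Of the 8 markers 3 were positive here, with a median of −0.21. Myh1 fell (−0.83, SE 0.16, edgeR adjusted p = 0.014), lost without Ddx5 siRNA replicates 2 or 3 or Ddx5 siRNA with stress replicate 1 (0.055 to 0.072) and with only the groups compared (0.15). Of the 3 tested muscle markers 1 was positive. Chondrocyte markers summed to 2160 to 2420 CPM without and 2030 to 2360 CPM with stress, which overlap, and their part in the results was not tested.

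Whether the stress effect itself differed with the Ddx5 siRNA was tested as the difference between both effects. None of the 9 genes passed with edgeR or DESeq2, and 0 had an unadjusted edgeR p under 0.05. With edgeR 0% of all genes passed, with 441 genes at an unadjusted p under 0.05. DESeq2 called 4 of the 21602 genes tested with it. The differences ran from −0.26 for Dusp4 (SE 0.44) to 1.12 for Nr4a3 (SE 0.58, 95% interval −0.11 to 2.35). The interval of Nr4a3 holds both 0 and a difference of more than 2 log2 units, so the libraries did not resolve it. Without replicate 1 of both Ddx5 siRNA groups 0 of 9 passed as well, and 0 of all 14346 tested genes.

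Under stress, the Ddx5 siRNA libraries were compared with stress without siRNA, since no library had the control siRNA under stress. With edgeR 0 of 9 genes passed, against 0.0283% of all genes. At an unadjusted p under 0.05 there was 1, Nr4a3. DESeq2 called 0 of the 9, against 157 of all 13057 genes tested with it. Nr4a3 was also the 1 of 9 that was higher without overlap, against 7.57% of all genes (log2 difference 1.1, SE 0.4, edgeR adjusted p = 0.33). Dusp1 differed by 0.02 (95% interval −0.3 to 0.35). The count was also 0 of 9 without replicate 1 of the Ddx5 siRNA groups, where 160 of all 14346 tested genes passed.

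**Figure D4:**
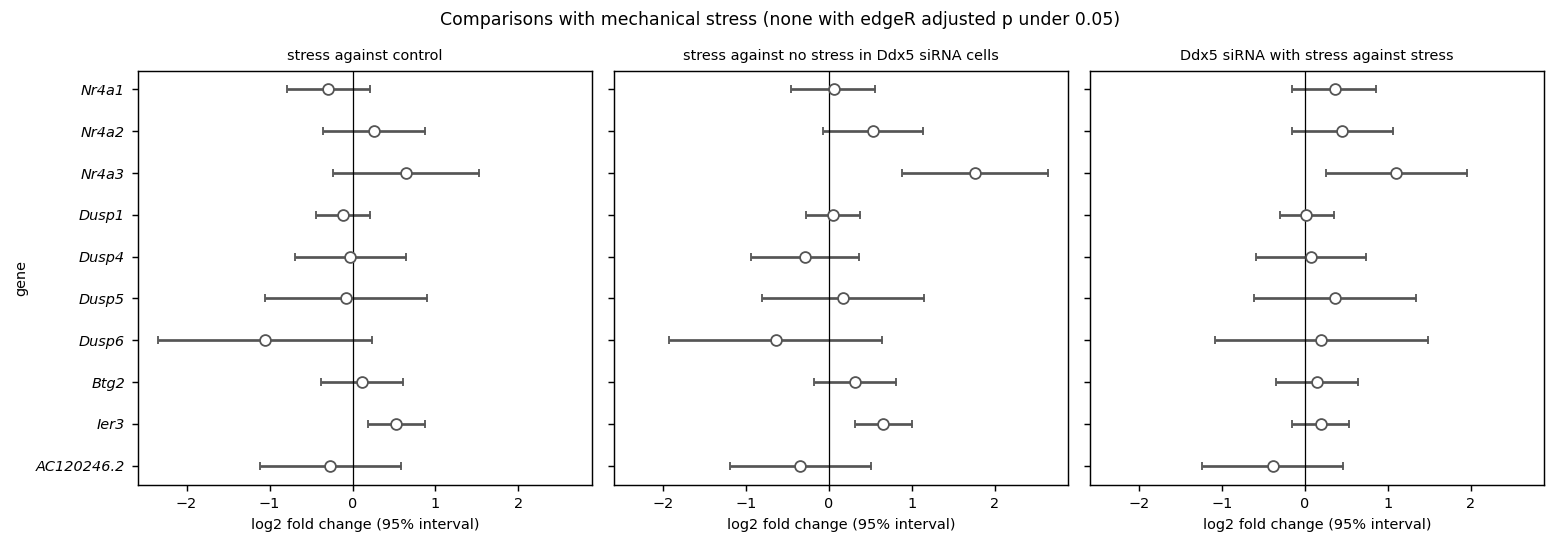
Log2 fold changes with 95% intervals (horizontal axes) of the 9 genes and AC120246.2 in the comparisons that involve mechanical stress. All points are open, since none passed at an edgeR adjusted p under 0.05. Nr4a3 lies farthest to the right, at 1.76 for stress in Ddx5 siRNA cells.

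Other genes of the same response were read from lists. Of 13 tested AP-1 and EGR immediate early factors, 3 fell and 1 rose with the control siRNA against control, with a median log2 fold change of −0.92. Over all tested genes 1.77% fell and 2.1% rose in this comparison. Junb, an AP-1 subunit, had 357, 326 and 422 CPM in the control and 140, 136 and 149 with the control siRNA (−1.38, SE 0.24, edgeR adjusted p = 0.0074). Fos, its partner, fell from 25.4, 23.4 and 21.5 to 2.81, 2.32 and 3.84 CPM (−2.96, SE 0.52, edgeR adjusted p = 0.011). Both lay far below the control in every library. Egr3, a zinc finger factor, fell by 2.95 (SE 0.57, edgeR adjusted p = 0.011). It had 3.74, 4.29 and 4.85 CPM in the control and 0.327, 0.799 and 0.53 with the control siRNA, near the floor of 0.21 CPM. Jund, an AP-1 subunit, rose by 0.43 (SE 0.11, edgeR adjusted p = 0.046). The Fos call was lost without control siRNA replicates 1 or 2 (0.061 each). That of Egr3 was lost without replicates 1 (0.067) or 3 (0.06), and that of Jund without any library but control replicate 1 (0.095 to 0.19). With the Ddx5 siRNA against the control siRNA 0 of the 13 passed with edgeR, while 12 of 13 were positive, with a median of 1.06. Fos had 2.32 (SE 0.52, edgeR adjusted p = 0.085) and Junb 1.06 (SE 0.24, edgeR adjusted p = 0.075).

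Zfp36, whose product triggers decay of transcripts with AU-rich elements, was the 1 of 4 tested decay factors that fell with the control siRNA. It had 70.7, 63.9 and 80.7 CPM in the control and 25.8, 24.2 and 27.6 with the control siRNA (log2 fold change −1.47, SE 0.26, edgeR adjusted p = 0.0091). Without control siRNA replicate 2 it did not pass (0.051). With the Ddx5 siRNA it had 30.2, 70.3 and 58.8 CPM, with replicate 1 again near the control siRNA level. Among 9 partners and coregulators of the NR4A receptors, 1 fell, the glucocorticoid receptor gene Nr3c1 (−0.53, SE 0.1, edgeR adjusted p = 0.012; lost without control siRNA replicates 1 at 0.063 or 3 at 0.064). Of 10 p53 targets, a group to which Btg2 also belongs, 1 rose, Sesn2, an inhibitor of mTORC1 signalling (1.14, SE 0.16, edgeR adjusted p = 0.0015). Single calls in lists of this size stand beside the 2.1% of all tested genes that rose. Of 14 MAP kinases and their kinases 1 rose, the ERK kinase gene Map2k2 (0.35, SE 0.08, edgeR adjusted p = 0.03), and of 8 genes of the CCR4-NOT complex and poly(A) binding proteins 1 rose, Pabpc1 (0.44, SE 0.1, edgeR adjusted p = 0.024). Map2k2 was lost without any library but control replicate 1 (0.084 to 0.13), and Pabpc1 without any but control replicate 2 (0.076 to 0.099). None of 4 other dual-specificity phosphatases, 4 other BTG and TOB genes, 2 other IER genes, 7 Sprouty, Spred and Errfi1 genes or 11 CREB, SRF and ternary complex factors passed in this comparison.

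Under stress the feedback inhibitor Spry1, which restrains receptor tyrosine kinase signalling to ERK, was the 1 of 7 genes of its list that fell, where 0.346% of all genes fell. It had 27.3, 24.9 and 28.4 CPM in the control and 14.7, 12.2 and 17.5 under stress (log2 fold change −0.86, SE 0.14, edgeR adjusted p = 0.0053). In Ddx5 siRNA cells it had 29.2, 28.6 and 26 CPM without stress and 12.9, 16.5 and 13.8 with it (−0.95, SE 0.14, edgeR adjusted p = 0.003), where 0.141% of all genes fell. No left-out library ended either call, and the groups stayed apart in both. The latter was lost when only these 6 libraries were fitted (edgeR adjusted p = 0.083). Fosb, an AP-1 subunit, was the 1 of 13 AP-1 and EGR factors that rose under stress in Ddx5 siRNA cells, where 1.05% of all genes rose, from 2.71, 4.97 and 5.12 to 9.78, 18.2 and 13.7 CPM (1.7, SE 0.32, edgeR adjusted p = 0.014). That call was lost without Ddx5 siRNA replicate 2 (0.057), without Ddx5 siRNA with stress replicate 2 (0.052) and with only these 6 libraries fitted (0.19). The phosphatase gene Dusp10, chosen after its values were seen, had 8.2, 12.3 and 11.3 CPM in the control and 13.5, 20.7 and 19.8 under stress (0.77, SE 0.29, edgeR adjusted p = 0.23). In Ddx5 siRNA cells it had 6.81, 11.9 and 16.6 CPM without and 23.1, 32.8 and 26.1 CPM with stress (1.21, SE 0.29, edgeR adjusted p = 0.064). Every stressed library lay above every unstressed one in both, and neither difference passed.

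The genes whose log2 CPM followed the 3 called members most closely over the 15 libraries came from the same response for Dusp1 and Btg2. For Dusp1 they were Junb (Pearson r = 0.955), Btg2 (0.95) and Zfp36 (0.943). For Btg2 they were Zfp36 (0.96), Junb (0.952) and Dusp1 (0.95). For Nr4a1 they were Fbxl5 (0.886), Rab11fip1 (0.853) and Gcnt2 (0.852), so the closest genes were weaker matches. These values describe libraries that share groups and scaling, and carry no test.

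**Figure D5:**
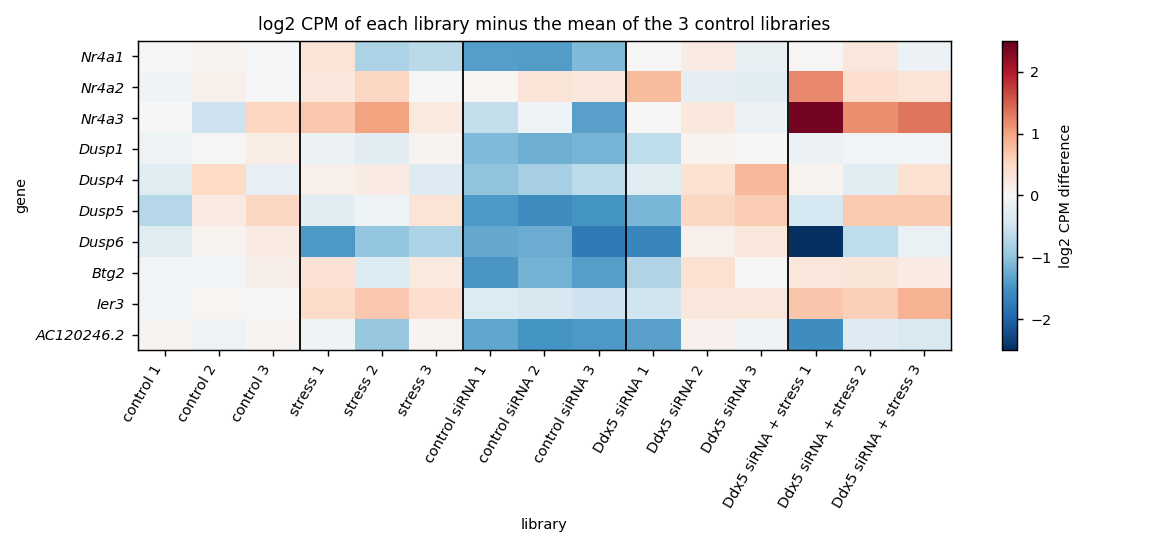
Log2 CPM of each gene (rows) in each library (columns) minus the mean of the 3 control libraries, from blue (lower) through white to red (higher). The control siRNA columns are blue in all rows but Nr4a2 (faintly so for Nr4a3 in replicate 2), and replicate 1 of both Ddx5 siRNA groups is blue for Dusp6 and AC120246.2 and red for Nr4a2.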

How the data were processed

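RNA-seq libraries were made from total RNA (Trizol, per the labels), 15 in all, placed in 5 groups by the treatment in the labels and numbered 1 to 3 by their titles. The authors deposited raw read counts per gene for each library. The sources used here do not give the aligner, counting tool, strand setting, build or annotation, and how reads shared by paralogs or overlapping loci were assigned is unknown. Deposited FPKM values were not used. The genes and lists were chosen with earlier results of these data known.

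The filter on low counts (filterByExpr by group) kept 14147 genes. Scaling used TMM, and edgeR 4.0.16 (R 4.3.3, limma 3.58.1) fitted all 15 libraries with 1 term per group. The robust quasi-likelihood F test was adjusted by the Benjamini-Hochberg method over all tested genes, with calls made at an adjusted p under 0.05. The SE is the fold change over the square root of F, and intervals are at 95%. Fold changes were not shrunk. Likeness used log2 CPM with a prior count of 2. The code was tested on simulated data. The 7 comparisons share libraries, so their values are not independent. No correlation, overlap or shared sign between them was tested.

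No 2 libraries of a group agreed within sampling noise (chi-square per degree of freedom of 8.03 to 68.1), and each counts as its own sample. Shared replicate numbers were taken as pairing where all 3 correlations of deviations from group means exceeded 0.1. They were 0.26 to 0.38 for stress against control and 0.24 to 0.58 for stress in Ddx5 siRNA cells, and pairing was not taken elsewhere.

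Named genes were all members, the called genes of each list (up to 3 with the lowest adjusted p, or all where 5 or fewer were called), the 3 genes most correlated with each called member, and Ddx5. Marker genes come from the marker lists. Dusp10, Egr1, Egr2, Myc and Atf3 were chosen after their values were seen. Alternatives were RLE scaling, no filter on low counts, DESeq2 1.42.0, only the groups compared, the replicate number as a block, and leaving out each library. Leaving out replicate 1 of both Ddx5 siRNA groups was chosen after seeing the data. Promoters come from RefSeq on GRCr8. The count of 3 gives a floor for counting error only.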

Additional observations from a re-analysis of the deposited data

How the results depend on the processing

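Counts of called genes among the 9 depended on the fit. For Ddx5 siRNA against control siRNA, 3 genes passed in the reported fit and with RLE scaling, 1 with no low-count filter, 5 with DESeq2, 4 with the replicate block, 1 with only the groups compared, 0 with the replicate block and only the groups compared, 7 with replicates 2 and 3 of the Ddx5 siRNA groups only, and 0 to 6 with 1 library left out. Over all tested genes, 56 passed in the reported fit, 58 with RLE scaling, 49 with no filter, 384 with DESeq2 and 417 with the block. With only the groups compared 39 passed, and 0 with the block as well. With replicates 2 and 3 only 1916 passed, and 1 to 645 with 1 library left out. For control siRNA against control, 3 passed, 6 with only the groups compared, 6 with the block as well, 4 with DESeq2 or with the block, and 2 to 3 with 1 library left out. Of all tested genes 547 passed here, 1394 with only the groups compared and 1570 with the block as well. DESeq2 called 1054, the block 1173, and the fits with 1 library left out 166 to 392. For stress against control, 0 passed, 1 with DESeq2, 2 with only the groups compared, 2 with the block as well, and 0 to 1 with 1 library left out. The totals over all tested genes were 199, 527, 202, 1683 and 81 to 157 in the same order. For stress in Ddx5 siRNA cells, 0 passed, 0 with only the groups compared, 2 with no filter, 2 with DESeq2, 2 with the replicate block, 3 with the block and only the groups compared, and 0 to 1 with 1 library left out. Here the totals over all tested genes were 169, 23, 166, 355, 250, 985 and 61 to 187 in that order. In the other 3 comparisons 0 of the 9 passed in each setting run. Over all tested genes 0 to 4 passed for the difference between the stress effects. For Ddx5 siRNA against the control without siRNA 2 to 132 passed, and for the Ddx5 siRNA under stress 0 to 160. The block added Dusp5 for Ddx5 siRNA against control siRNA (log2 fold change 1.53, edgeR adjusted p = 0.035) and for control siRNA against control (−1.47, edgeR adjusted p = 0.021), where numbers were not taken as pairing.

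Directions turned in genes near 0 that did not pass. With the block, Dusp4 for stress against control was 0. With replicates 2 and 3 of the Ddx5 siRNA groups only, Dusp1 was −0.12 for stress in Ddx5 siRNA cells, and against the control without siRNA Dusp1 was 0.04, Dusp6 0.19 and Btg2 0.2. With 1 library left out, log2 fold changes for stress against control ran from −0.03 to 0.3 for Btg2, −0.18 to 0.28 for Dusp4 and −0.36 to 0.2 for Dusp5. For stress in Ddx5 siRNA cells they ran from −0.06 to 0.16 for Nr4a1, −0.14 to 0.19 for Dusp1, −0.54 to 0.01 for Dusp4 and −0.21 to 0.45 for Dusp5. For Ddx5 siRNA against the control without siRNA they ran from −0.1 to 0.1 for Nr4a1, −0.29 to 0.04 for Dusp1, −0.51 to 0.19 for Dusp6 and −0.34 to 0.19 for Btg2. Nr4a2 ran from −0.48 to 0.17 for Ddx5 siRNA against control siRNA, Dusp1 from −0.06 to 0.12 for the Ddx5 siRNA under stress, and Dusp4 from −0.57 to 0.03 for the difference between the stress effects. The cause was not tested, beyond fewer samples in the smaller fits. Depth limits Nr4a3 and Dusp4, at 9 to 149 and 31 to 121 counts per library.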

Other observations

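Replicate 1 of both groups with the Ddx5 siRNA, which stood apart from their groups, were alike in several early response genes outside the 9, among them Egr1 and Egr2. Egr1, Egr2, Myc and Atf3 were chosen after their values were seen. Egr1, a zinc finger factor induced by ERK signalling, had 66.8 CPM in Ddx5 siRNA replicate 1 and 315 and 268 CPM in the other replicates. With stress it had 73 CPM in replicate 1 and 287 and 221 CPM in the others, and the control siRNA libraries had 54.2 to 62 CPM. Egr2 had 20.7 CPM in Ddx5 siRNA replicate 1 against 138 and 138 CPM, and 21.4 CPM in the stressed replicate 1 against 99.6 and 113 CPM. The control siRNA libraries had 14.7 to 17.2 CPM of Egr2. Fos, Fosb, Egr3 and Myc were also lowest in replicate 1 of both groups. Egr3 had 0.926 CPM against 5.22 and 3.81, and 1.3 against 3.02 and 2.34 with stress. Myc had 19.8 CPM against 45.8 and 45.9, and 26.4 against 53.9 and 52 with stress. Jund was highest in replicate 1 of both groups, and Zfp36 was lowest there only without stress. Junb, Btg2 and Atf3 were not alike in these 2 libraries. Junb had 163 CPM in Ddx5 siRNA replicate 1 and 393 and 332 CPM in the others, but 338 CPM in the stressed replicate 1 beside 395 and 380 CPM. Btg2 likewise had 54 CPM in the former and 111 CPM in the latter. Atf3, a stress-induced factor of the ATF family, had 27.1 CPM in the stressed replicate 1 and 6.45 and 5.25 CPM in the other stressed replicates, while in Ddx5 siRNA replicate 1 it had 5.16 CPM. What sets these libraries apart was not tested.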
